A study of Drosophila melanogaster with 10 samples.

Results

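Odorant-binding proteins are small secreted proteins that fill the fluid around the sensory neurons of insect antennae and taste hairs, where they bind odorants and other small ligands. They are made mainly by support cells rather than by the neurons. Members of the family are also made outside sense organs, and several are seminal fluid proteins of the male accessory gland or ejaculatory bulb. The genes described here are all those whose symbol in the platform annotation begins with Obp and a digit, 47 genes of the 11982 that had a probe set with a single gene symbol. Of these, 26 lie on chromosome arm 2R, 11 on 3R, 6 on X and 2 each on 2L and 3L. Where a gene had 2 probe sets, the one with the higher mean stands for it. A further 4 probe sets carry an Obp symbol beside another gene's and were not assigned to either.

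Total RNA of fly heads, per the labels of the yw strain and titled as controls, was hybridised to 10 arrays at 6 times of day. ZT (zeitgeber time) is counted in hours from a daily cue, by convention lights on. ZT3 and ZT15 had 3 arrays each, while ZT7, ZT11, ZT19 and ZT23 had 1 each. Per the labels all groups share strain and tissue and differ in time. The sources used here give neither light schedule, age nor sex, nor do they say that replicates were separate collections, so p-values below speak only of spread among these arrays, which may be technical. A level below is the natural log of the deposited value, likely equal to a GCRMA log2 value. If the deposited values were plain intensities, differences on the log2 scale would be 1.44 times larger.

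The arrays fall into a 4-array set, which holds ZT3 replicates 1 and 2 with replicates 2 and 3 of ZT15, and a 6-array set with ZT3 replicate 3, ZT15 replicate 1 and the single arrays of the other times. Clustering without the Obp probe sets gave the same sets. Arrays correlated at 0.968 to 0.992 inside a set and at 0.72 to 0.83 across sets (tested probe sets). The head label was checked against marker lists. Phototransduction genes, markers of the eye, had array means of 13.1 to 13.23 in the 4-array set and 12.91 to 13.49 in the 6-array set (10 of 19 listed genes measured). The 9 olfactory cell markers had array means of 8.96 to 9.23 in the 4-array set and 3.87 to 4.83 in the 6-array set. Of these 9, 4 stayed below 5 on every array of the 6-array set, against 1 of 9 in the 4-array set. Orco, the co-receptor that most odorant receptors need, was at 9.95 ± 0.0726 (SD, n = 4) and 4.95 ± 0.312 (SD, n = 6). Accessory gland markers ran the other way, at 3.93 to 4.26 in the 4-array set and 11.7 to 12.89 in the 6-array set, with 12 of 13 lower by over 2 in the 4-array set. Testis markers were at 4.15 to 6.03 and 10.42 to 11.50, and all 13 measured were lower by over 2 in the 4-array set. Flight muscle markers (5 of 7 measured) had array means of 7.54 to 8.04 in the 4-array set and varied more in the 6-array set, at 7.42 to 11.97. On the arrays behind its ZT15 minus ZT3 differences they were at 10.61 (ZT3 replicate 3) and 7.42 (ZT15 replicate 1). The 6-array set thus went against its head label on the antennal and the male organ markers, and some of its arrays were high in muscle markers, while its eye markers were as high as those of the 4-array set. Differences between the sets are given below as a description with no test, because the sets were drawn from these same values.

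Obp transcripts spanned nearly the whole range of the arrays. In all, 9 genes were at 12 or more on all 10 arrays, and 17 stayed below 5 on all 10. Obp56d, known from smell and taste organs, was the highest. It was at 15.005, 14.98, 15.06 and 15.12 in the 4-array set (the ZT3 arrays first and then those of ZT15, an order kept throughout) and at 14.80 to 14.98 with a median of 14.91 in the 6-array set. Obp19d, known from antennae and from taste organs, was at 15.18, 15.17, 15.20 and 15.27 in the 4-array set and at 14.44 to 14.71 (median 14.59) in the 6-array set. Both genes were high on every array, and their sets did not overlap. Obp99c was at 14.60, 14.66, 14.68 and 14.65, and at 14.24 to 14.41 (median 14.31) in the 6-array set. Obp44a, known from glia of the nervous system, was at 14.57, 14.57, 14.73 and 14.82 in the 4-array set and at 13.98 to 14.17 (median 14.04) in the 6-array set. The order of the leading genes is that of probe set signals, which depend on the probes, so neighbours in it cannot be ranked as transcript amounts.

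Obp49a, whose product acts in taste hairs when bitter compounds suppress the response to sugar, hardly differed between the sets. It was at 12.67, 12.86, 12.86 and 12.78 in the 4-array set and at 12.63 to 13.09 (median 12.86) in the 6-array set, and the sets overlapped. Obp57c was at 13.06, 13.25, 12.98 and 13.06 against 12.37 to 12.83 (median 12.56). Obp56h, whose loss is known to alter cuticular hydrocarbons and mating, was at 10.01 to 10.33 in the 4-array set and 10.02 to 10.55 in the 6-array set. Small differences of this kind depended on scaling: with each array centred on its phototransduction genes, Obp18a, Obp56d and Obp99c turned from higher to lower in the 4-array set (Obp56d from 0.14 to -0.28, Obp99c from 0.33 to -0.087), and Obp56h changed sign under median centring. Centring on phototransduction genes moved the median difference of all genes by -0.417, and median centring moved it by 0.021.

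**Figure D1:**
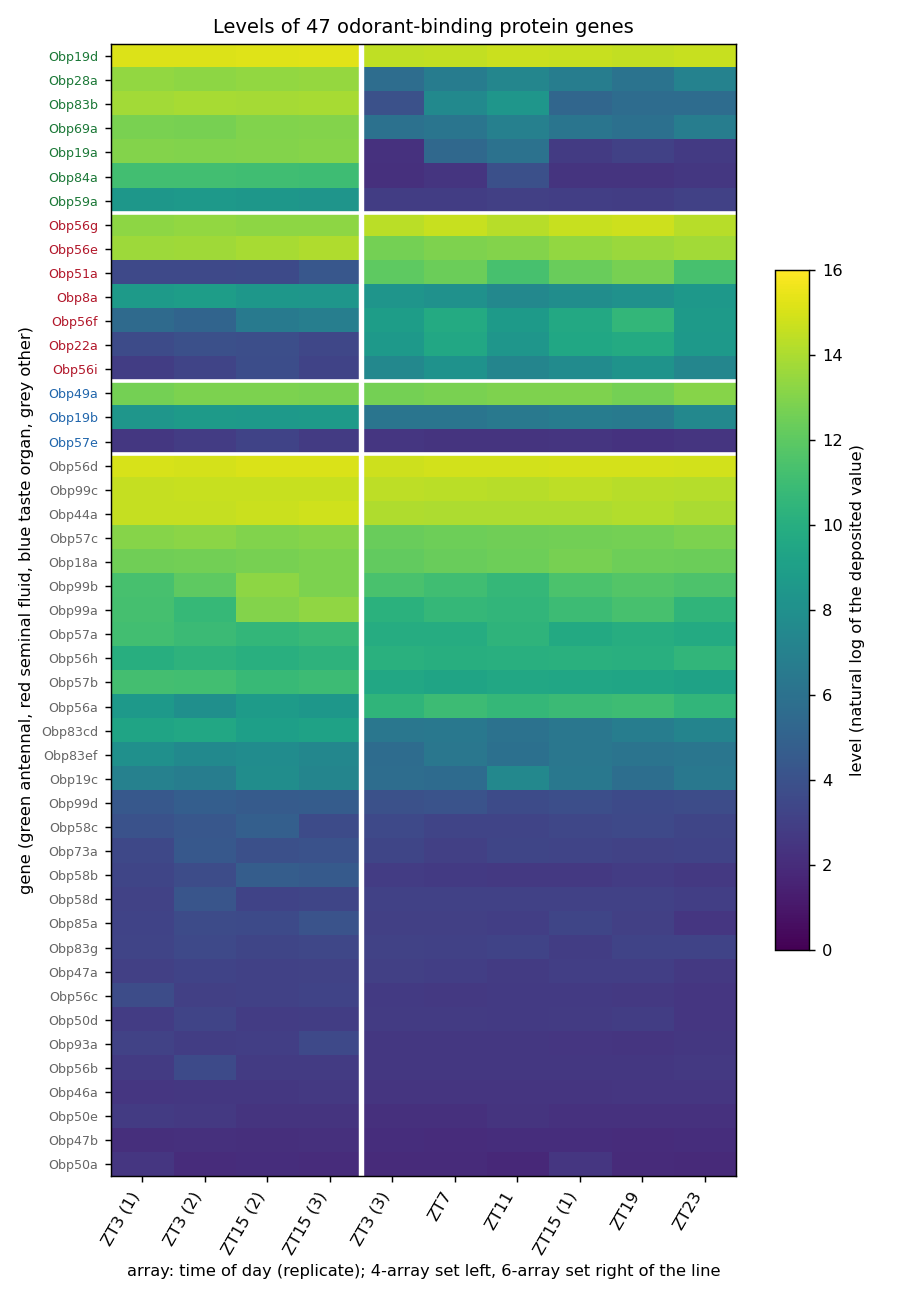
Heat map of the level (natural log of the deposited value, colour scale 0 to 16) of 47 Obp genes in rows on 10 arrays in columns, with the 4-array set left and the 6-array set right of the vertical white line and horizontal white lines between the antennal, seminal fluid, taste organ and other genes. Of the 7 antennal genes, 6 are bright on the 4 arrays at the left and dark at the right, and 4 of the 7 seminal fluid genes show the reverse.

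The antennal genes were the part of the family that separated the sets most. Of the 7 measured on a list of 8, 6 were higher in the 4-array set by over 2, and the list had medians of 13.01 and 6.08 in the 4-array set and the 6-array set. Over all Obp genes 7 of 47 were higher by over 2, beside 1.61% of all genes, and the median difference (4-array minus 6-array set) came to 0.573 beside 0.215. The seventh was Obp83cd, which is on no role list, at 9.29 ± 0.244 (SD, n = 4) and 6.53 ± 0.41 (SD, n = 6). Among the antennal genes only Obp19d, with a difference of 0.63, stayed within 2. Fewer cells of a type and less RNA per cell cannot be told apart in such bulk samples.

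Obp19a had the largest difference of the 47. It was at 13.03, 12.95, 12.998 and 13.07 in the 4-array set and at 2.26 to 6.01 in the 6-array set, with a median of 2.92. Its second probe set had means of 11.78 and 3.71, so both agree in direction. Obp84a, known from the coeloconic sensilla of the antenna, was at 11.17, 11.16, 11.09 and 11.01 and at 2.23 to 3.92 (median 2.45). The lowest of these values are like those of genes low on every array and may not be above background, so the size of the differences, 9.31 for Obp19a and 8.43 for Obp84a, is uncertain. A pseudocount of 16 brought that of Obp84a to 7.65. Obp83b (OS-E), which is found in pheromone-sensing hairs of the antenna, was at 13.80, 13.88, 13.84 and 13.91 in the 4-array set. Its 6-array values ran from 3.97 to 8.40 with a median of 5.65.

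Obp28a, whose product is abundant in antennal sensilla, was at 13.39, 13.31, 13.42 and 13.49 in the 4-array set and at 5.74 to 7.34 (median 6.74) in the 6-array set. Obp69a, which is known to modulate the response to the male pheromone cis-vaccenyl acetate, was at 12.80, 12.73, 12.99 and 13.05 against 5.92 to 6.97 (median 6.24). Obp59a, which is needed for humidity sensing, was at 8.48, 8.62, 8.47 and 8.37 against 2.90 to 3.07 (median 2.94). In all 6 of these genes the lowest array of the 4-array set lay above the highest of the 6-array set by several units. The second probe set of Obp59a was low on every array, at 2.92 to 3.59 and 2.28 to 2.35.

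Some of the other genes of the odour pathway were also higher in the 4-array set. Of 33 listed, 23 were measured, and 7 were higher in the 4-array set by over 2, beside 1.61% of all genes, while none was lower by that much. Their median difference was 0.75, against 6.78 for the antennal Obp genes. The lists overlap: of the 7, Orco, Os-C, a10, lush and a5 are also among the olfactory cell markers described above. Only Antdh and Jhedup are not. lush, the family member that the symbol rule leaves out and that flies need to sense cis-vaccenyl acetate, was at 11.36 ± 0.139 (SD, n = 4) and 4.61 ± 0.378 (SD, n = 6). Os-C and a10, secreted proteins of the antenna, were at 13.46 ± 0.0311 and 12.03 ± 0.0587 in the 4-array set, and at 5.19 ± 1.38 and 5.62 ± 1.18 in the 6-array set. The antennal gene a5 was at 11.20 and 3.56, the antennal dehydrogenase gene Antdh at 11.99 and 7.82, and the esterase gene Jhedup at 11.94 and 4.92. Snmp1, a membrane protein of pheromone-sensing neurons, differed by 1.95. Of the CheA and CheB genes, which encode proteins of taste hairs, 11 of 12 were too low to be tested. Small or opposite differences were those of EbpIII, a secreted protein of the ejaculatory bulb and other tissues (-0.015, from 15.06 ± 0.0561 and 15.07 ± 0.0995), Phk-3 (-0.74), CheA87a (-0.12) and Snmp2 (0.27). The part of tissue content in the differences of the antennal genes was not tested.

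Within the 6-array set the antennal genes also differed from array to array. Obp19a was at 5.41 at ZT7 and 6.01 at ZT11 and at 2.26 to 3.07 on the other 4 arrays. Obp83b was at 7.57 at ZT7, 8.40 at ZT11 and 3.97 to 5.66 on the others. The olfactory marker mean was likewise highest on these arrays, at 4.59 and 4.83 beside 3.87 to 4.16. Of its genes Os-C, a10, lush and a5 were highest on these arrays, but the others were not. Snmp1 was highest at ZT15 (7.53), and Orco was at 4.86 at ZT7 beside 5.18 at ZT23. In the 4-array set Obp19a and Obp83b had SDs of 0.0501 and 0.0447, against 1.59 and 1.62 in the 6-array set.

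Seminal fluid genes showed the opposite pattern. Of the 7 listed, 4 were lower in the 4-array set by over 2, and 5 of all 47 were, beside 10.9% of all genes, so the family's share was near the background. Obp51a was at 3.52, 3.54, 3.61 and 4.32 in the 4-array set and at 11.32 to 12.72 (median 12.19) in the 6-array set. Obp22a was at 3.68, 3.93, 3.87 and 3.38 against 8.40 to 9.78 (median 9.11), and Obp56i at 2.93, 3.27, 3.78 and 3.23 against 7.30 to 8.20 (median 7.58). In the 4-array set these 3 genes were as low as the accessory gland markers. Obp56f was at 5.55, 5.17, 6.51 and 6.83 in the 4-array set and at 8.69 to 10.60 (median 9.28) in the 6-array set.

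The remaining seminal fluid genes were at 7.46 or more on all arrays. Obp56g, an ejaculatory bulb product that takes part in forming the mating plug, was at 13.26, 13.39, 13.30 and 13.25 against 14.28 to 14.79 (median 14.51), a difference of -1.21 with no overlap. Obp56e was at 13.68, 13.69, 13.90 and 14.09 in the 4-array set and at 12.65 to 13.79 (median 13.21) in the 6-array set, and Obp8a at 8.75, 8.89, 8.47 and 8.41 against 7.46 to 8.53 (median 8.06). Both overlapped between the sets. Obp56a, on no role list, was lower in the 4-array set at 8.58, 7.98, 8.78 and 8.45 against 10.45 to 11.04 (median 10.76). The part of male organ RNA in these differences was not tested.

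**Figure D2:**
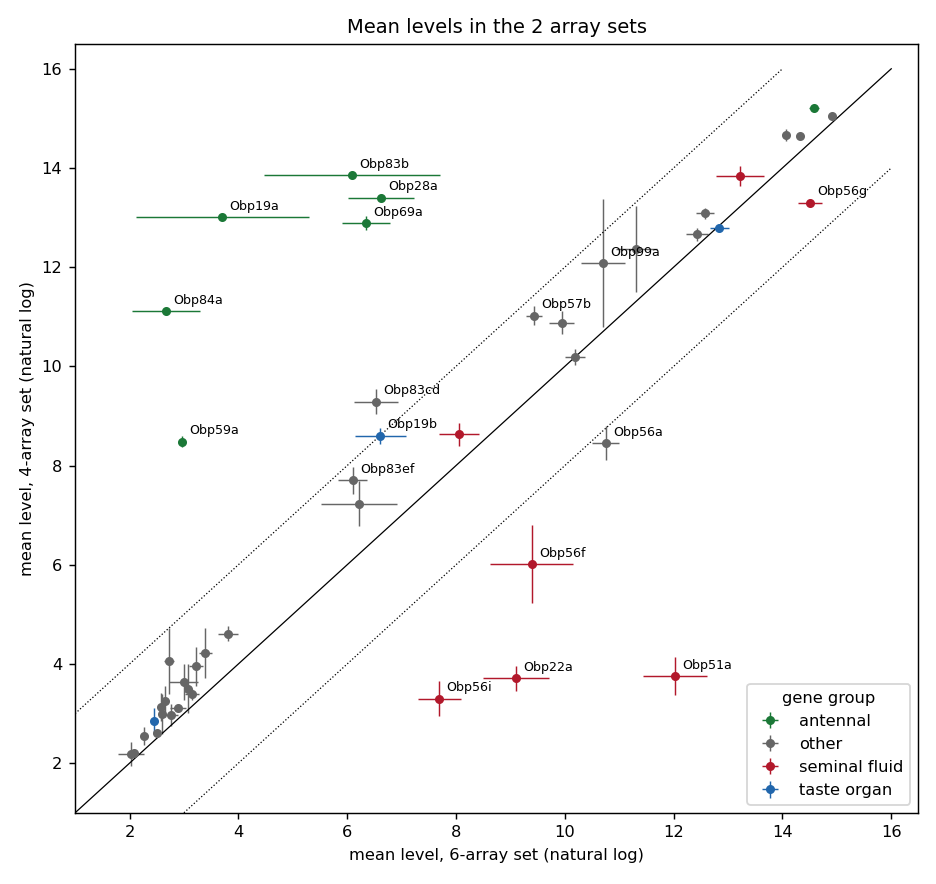
Mean level of each Obp gene in the 4-array set (vertical axis, natural log) against the 6-array set (horizontal axis), with bars for the SD over 4 and 6 arrays, colours for the gene group, a solid line of equality and dotted lines at differences of 2. The antennal genes other than Obp19d lie far above the line, and Obp51a, Obp22a, Obp56i and Obp56f lie far below it.

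On the taste list 3 of 4 genes were measured. Obp19b, which is needed in taste hairs for the detection of amino acids, was at 8.61 ± 0.162 (SD, n = 4) and 6.61 ± 0.472 (SD, n = 6) with no overlap. Obp57e, known for its part in the taste of host plant acids, was at 2.58 to 3.22 and 2.36 to 2.54, and so low on every array. Obp57d shares both its probe sets with Cpr57A and was not assigned a value. The related genes Obp57a and Obp57b were higher in the 4-array set by 0.94 and 1.59, with no overlap.

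Neighbouring genes in the reference annotation did not share one difference between the sets. Obp19a, Obp19b, Obp19c and Obp19d follow one another on X with no other coding gene between. Their 4-array minus 6-array set differences were 9.31, 2.00, 1.01 and 0.63. The probe set of Obp19d is of a type that can match more than 1 transcript. In the run from Obp56a to Obp56f on 2R, the genes at either end, Obp56a and Obp56f, differed by -2.31 and -3.37. Between them Obp56b, Obp56c, Obp56d and Obp56e differed by 0.40, 0.59, 0.14 and 0.62. Obp83cd, Obp83ef and Obp83g on 3R differed by 2.76, 1.60 and 0.23. Obp59a, with a difference of 5.52, is followed by Obp58b, Obp58c and Obp58d, which differed by 1.33, 0.83 and 0.42. Obp58b, Obp58c, Obp58d and Obp83g were below 5 on every array, where a difference may not be measurable.

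**Figure D3:**
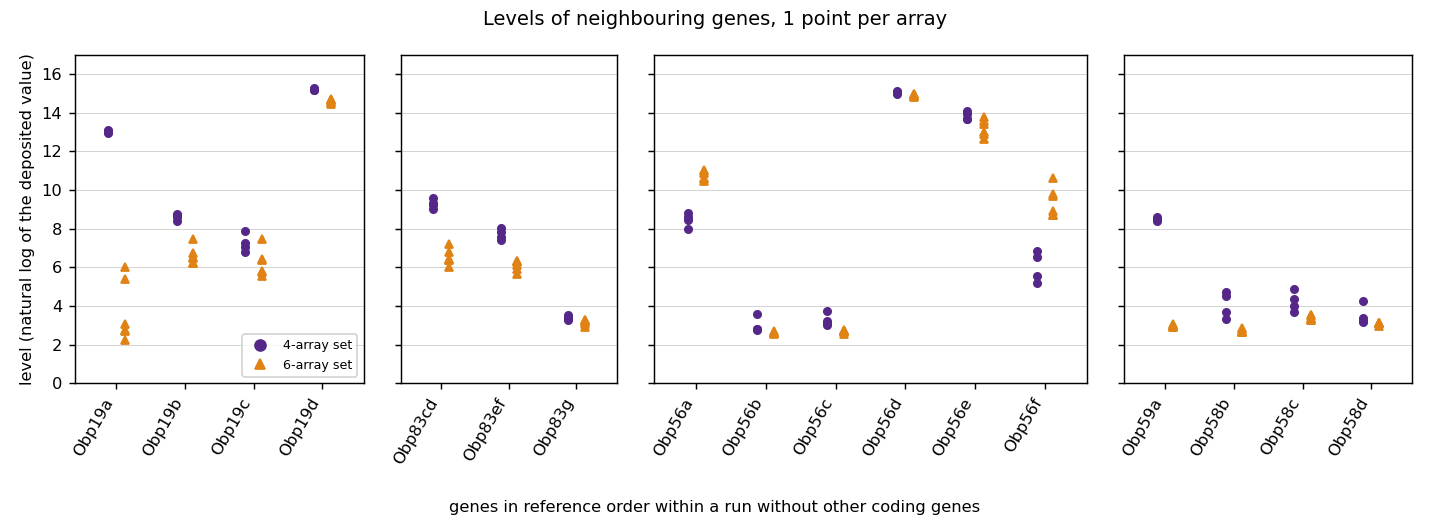
Level (natural log of the deposited value) on each array of genes from 4 runs with no other coding gene between, in reference order, with circles for the 4-array set and triangles for the 6-array set. Obp19a and Obp59a show widely separated sets in the same runs as Obp19d and Obp58d, whose sets lie close together. Distances between genes on the vertical axis also depend on their probes.

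The 17 genes low on every array were Obp99d and the 16 not tested, whose levels ran from 1.87 to 4.85. They include all of Obp46a, Obp47a, Obp47b, Obp50a, Obp50d and Obp50e, together with Obp56b, Obp56c, Obp57e, Obp58b, Obp58c, Obp58d, Obp73a, Obp83g, Obp85a and Obp93a. Of the 47 genes, 30 had the 4-array set above the 6-array set with no overlap, beside 37% of all genes, and 6 had it below, beside 19.9%. Many of the 30 are such low genes, whose values lie near the bottom of the scale.

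The comparison of ZT15 with ZT3 asked whether Obp transcripts differ between these times of day. No Obp gene passed at an adjusted p of 0.05 (limma with an array set block, adjusted over 12991 probe sets). Called were 0 of the 31 tested (mean level at least 4), beside 0.154% of all probe sets. Without the block 0 passed as well, beside 0.0308%. At an unadjusted p under 0.05, 8 of 31 passed with the block, beside 9.6% of all probe sets, of which 7 were higher at ZT15 (background 4.56%) and 1 lower (5.03%), and 0 without it (1.81%). Higher at ZT15 by any amount were 23 of the 31, beside 51.4% of all tested probe sets. The median difference, ZT15 minus ZT3, was 0.123 over the 31 genes and 0.0061 over all tested probe sets. Some of the 31 passed the filter only through the array set where they were higher. Obp19a, Obp59a, Obp84a and Obp99d had means below 4 in the 6-array set, and Obp22a, Obp51a and Obp56i in the 4-array set. In those sets their differences may not be measurable, yet they enter these counts and the median.

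The largest difference was that of Obp99a. It was at 11.30 and 10.69 at ZT3 and 13.01 and 13.33 at ZT15 in the 4-array set, and at 10.21 at ZT3 and 10.98 at ZT15 in the 6-array set. ZT15 was above ZT3 in both sets, and over all 6 arrays only ZT15 replicate 1, at 10.98, fell within the ZT3 range. The difference was 1.71 ± 0.352 (SE with the block), or 3.26-fold if read as log2, with an adjusted p of 0.256 (limma). It was 2.18 in the 4-array set and 0.77 in the 6-array set.

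Obp99b, also called tsx and known from fat cells of the head with expression that differs between the sexes, was at 11.35 and 12.001 at ZT3 and 13.28 and 12.84 at ZT15 in the 4-array set. On the 6-array set it was at 11.43 and 11.46. The difference was 1.38 in the 4-array set and 0.025 in the 6-array set. Jointly it was 0.93 ± 0.355 (SE), with an adjusted p of 0.506 (limma). The difference between the sets had an adjusted p of 0.651 for Obp99b and 0.642 for Obp99a (limma interaction term), and the lowest for any Obp gene was 0.456. The fat body marker mean in the 4-array set was 12.84 and 13.04 at ZT3, then 13.11 and 13.22 at ZT15. The 6-array values were 12.10 and 12.31. Among the listed fat body genes Lsp2 differed most, by 1.25 and 0.58 in the 4-array and 6-array sets. In the 4-array set Yp1, Yp2, Yp3 and apolpp differed by 0.041 to 0.114, and Fbp1, low on every array, by -0.246. Lsp2 also passed the threshold in the cosine fit (adjusted p 0.027, limma F test). The part of fat body content in the result was not tested. Leaving out any 1 of the 6 arrays kept Obp99a and Obp99b short of the threshold. Differences were 1.40 to 2.18 for Obp99a (adjusted p 0.242 to 0.586, limma) and 0.62 to 1.38 for Obp99b (0.351 to 0.827).

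Obp56f, the seminal fluid gene with the lowest adjusted p, was at 5.55 and 5.17 at ZT3 and 6.51 and 6.83 at ZT15 in the 4-array set, and at 8.90 and 9.66 in the 6-array set. ZT15 was higher in each set, by 1.31 and 0.75. The joint difference was 1.13 ± 0.193 (SE), with an adjusted p of 0.179 (limma). Accessory gland markers averaged 4.05 and 3.93 on the ZT3 arrays of the 4-array set, then 4.26 and 3.996 on its ZT15 arrays, and went from 11.95 to 12.52 in the 6-array set. The 13 markers had a median joint difference of 0.233, and 11 of them were below 5 on every array of the 4-array set. The largest joint difference was that of Acp76A, higher at ZT15 by 1.46 and 1.10 in the same sets (adjusted p 0.0721 jointly, limma). Its 4-array levels were only 2.94 to 4.56. Others went down at ZT15 in the 4-array set, among them Acp36DE (-0.416) and Acp62F (-0.371). The testis markers had a median joint difference of 0.698. Their means in the 4-array set were 4.15 and 4.54 at ZT3, then 6.03 and 4.57 at ZT15. In the 6-array set they went the other way, from 11.08 to 10.66. The part of male organ RNA in the difference of Obp56f was not tested. Obp56e was at 12.65 at ZT3 and 13.41 at ZT15 in the 6-array set, and its difference was 0.46 ± 0.136 (adjusted p 0.403, limma). Obp19c differed by 0.65 in both sets (0.65 ± 0.187, adjusted p 0.397, limma). Its second probe set was below 3 on every array.

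Differences in the other direction were smaller. Obp8a was at 8.75 and 8.89 at ZT3 and 8.47 and 8.41 at ZT15 in the 4-array set, and at 8.35 and 7.86 in the 6-array set. Its difference of -0.41 ± 0.0981 (SE) had an adjusted p of 0.318 (limma). Obp57a and Obp57b, 2 neighbouring genes, differed by -0.27 ± 0.131 and -0.23 ± 0.106, and both were lower at ZT15 in each set. Obp83cd (-0.22) and Obp59a (-0.07) were lower at ZT15 in the 4-array set and not in the 6-array set. Obp59a was at only 2.90 to 3.07 in the 6-array set, where a difference may not be measurable. With 1 array left out the differences ran from -0.339 to -0.113 for Obp83cd, from -0.133 to -0.016 for Obp59a and from -0.336 to -0.177 for Obp57a.

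In all, 11 of the 31 genes had both ZT15 arrays above both ZT3 arrays in the 4-array set and ZT15 above ZT3 in the 6-array set, beside 12.3% of all tested probe sets. These were Obp18a, Obp19c, Obp19d, Obp28a, Obp51a, Obp56d, Obp56e, Obp56f, Obp69a, Obp99a and Obp99b. Obp51a was at only 3.52 to 4.32 in the 4-array set, where the order of arrays may not be measurable. It was tested because of its high 6-array levels. The reverse held for 3 genes, Obp8a, Obp57a and Obp57b, beside 11%. The antennal genes Obp28a and Obp69a differed by 0.11 and 0.25 in the 4-array set. Obp28a differed by 1.01 in the 6-array set and Obp83b by 1.28, each from 1 array against 1. Obp83b was at only 3.97 on the ZT3 array of that set, so the size of its difference is uncertain. On the same arrays the olfactory marker mean was 3.87 at ZT3 and 4.13 at ZT15, beside muscle marker means of 10.61 and 7.42.

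**Figure D4:**
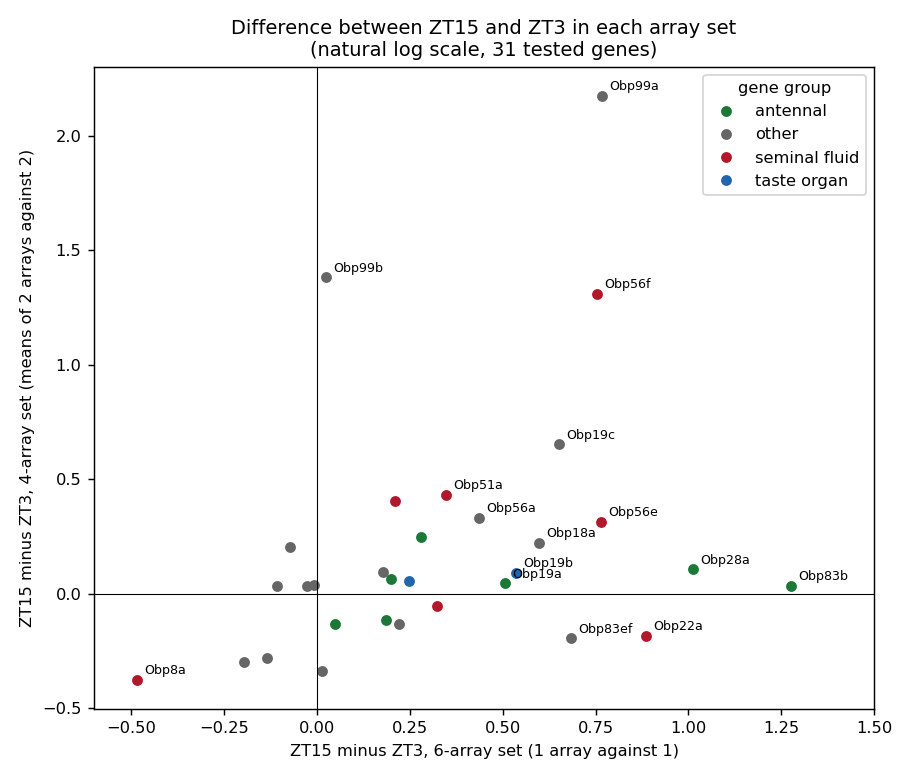
Difference ZT15 minus ZT3 (natural log scale) of the 31 tested Obp genes in the 4-array set (vertical axis, 2 arrays against 2) against the 6-array set (horizontal axis, 1 array against 1), coloured by gene group, with lines at 0. Obp99a and Obp56f lie high in both sets, Obp99b in the 4-array set, and Obp83b and Obp28a in the 6-array set.

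The 24-hour cosine fit asked whether Obp levels followed a daily cycle. With the block 0 of 31 genes passed at an adjusted p of 0.05 (limma F test), beside 0.508% of all probe sets, and 0 without the block, beside 0.0385%. At an unadjusted p under 0.05, 7 of 31 passed with the block, beside 7.91%. Obp8a had the lowest adjusted p, 0.163 (limma), with an amplitude (fitted mean to peak) of 0.40 and a fitted peak at ZT23.6. Its 6-array levels were 8.35, 8.07, 7.46, 7.86, 8.06 and 8.53 from ZT3 to ZT23, lowest at ZT11. These are single arrays, so no replicate error stands behind the course.

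Obp99a had an amplitude of 0.81 ± 0.165 (SE) and a fitted peak at ZT16.0 (adjusted p 0.224, limma). In the 6-array set alone the amplitude was 0.429. Its 6-array levels were 10.21, 10.65, 10.52, 10.98, 11.37 and 10.49 from ZT3 to ZT23, highest at ZT19. The amplitude of Obp99b was 0.57, peaking at ZT18.2 (adjusted p 0.610, limma), with 11.43, 11.08, 10.68, 11.46, 11.72 and 11.52 over the same times. Both were at their highest in the 6-array set at ZT19. Obp56e was lowest at ZT3 and highest at ZT23 on the same 6 arrays, at 12.65, 12.89, 13.02, 13.41, 13.59 and 13.79, with an adjusted p of 0.337 (limma).

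The largest amplitudes belonged to genes that were low in the 6-array set. Obp19a had 1.64 with a fitted peak at ZT9.36 (adjusted p 0.415, limma), and 1.055 by its second probe set. Outside ZT7 and ZT11 its 6-array levels may not be above background, so the size of this amplitude is uncertain. Obp83b had 1.37 with a peak at ZT9.70 (adjusted p 0.741, limma). Without the ZT11 array the amplitude of Obp83b was 0.817. Their highest arrays in that set, ZT7 and ZT11, were also those with the highest olfactory marker mean, and the part of tissue content in these amplitudes was not tested. The amplitude of Obp56f was 0.59, peaking at ZT16.6 (adjusted p 0.721, limma), and 0.958 without the ZT7 array. Its 6-array levels were 8.90, 9.77, 8.69, 9.66, 10.60 and 8.71 from ZT3 to ZT23, beside an accessory gland marker mean of 11.95, 12.61, 11.85, 12.52, 12.89 and 11.70. Both were highest at ZT19 and high at ZT7 and ZT15. The other genes of the odour pathway had 0 of 12 tested past the threshold in either comparison.

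**Figure D5:**
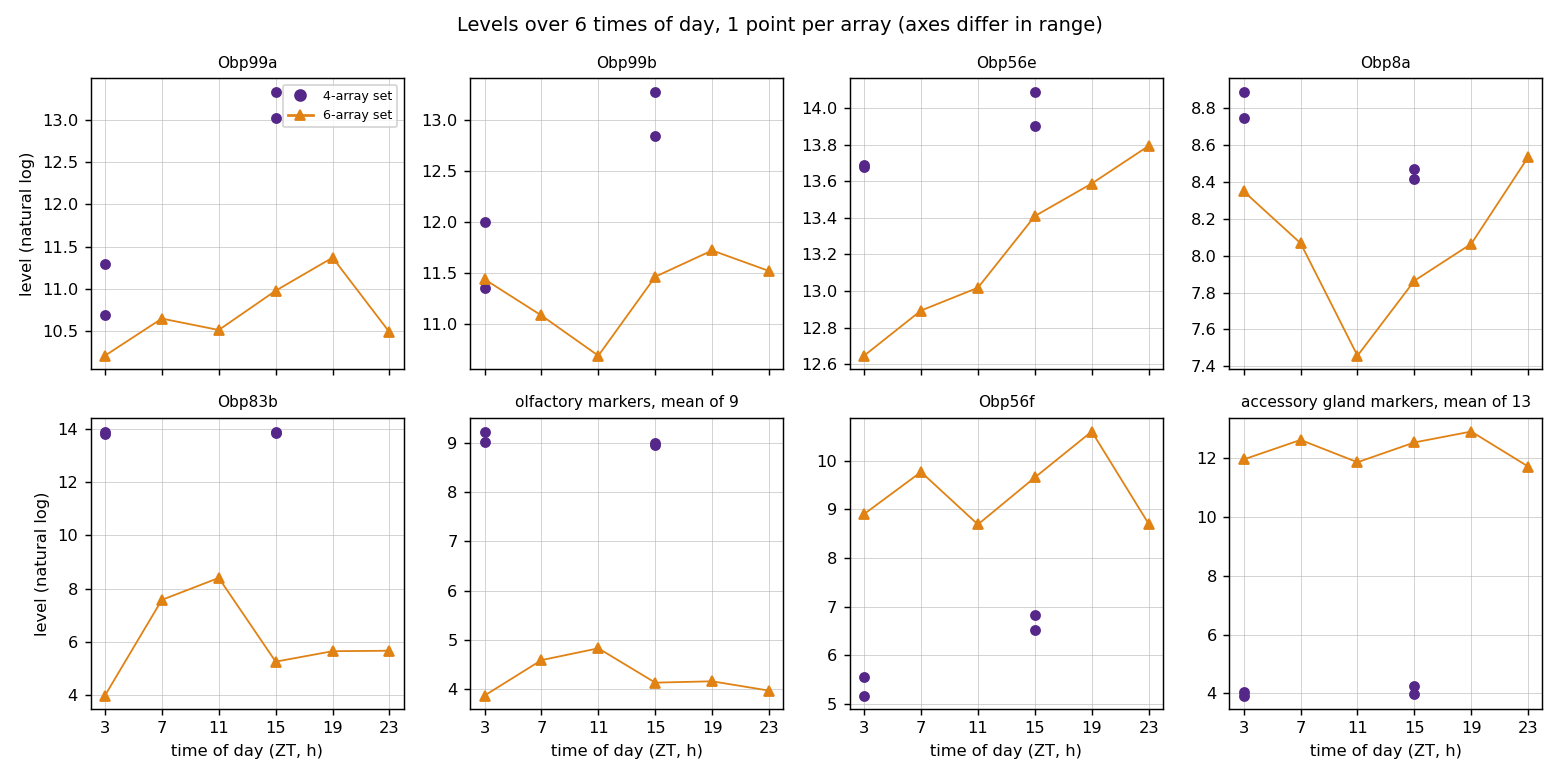
Levels (natural log) against time of day in hours (ZT) for 6 Obp genes and for the mean level of the olfactory and accessory gland marker lists, 1 point per array, with circles for the 4-array set and joined triangles for the 6-array set. Obp99a and Obp99b are higher at ZT15 than at ZT3 in the 4-array set, which holds only these times. In the 6-array set both are highest at ZT19. Obp83b is highest at ZT11 within the 6-array set, as is the mean of the olfactory markers, though not each marker.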

How the data were processed

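Head RNA on 10 arrays was deposited by the authors as 1 intensity per probe set and array, from 5.283 to 8528000, and the submitters' processing notes name GCRMA (background correction by probe sequence, normalization and probe summary), with no version or settings. The highest value is more than a 16-bit scanner with 65536 levels can give, and its natural log is 15.96, so the natural log was read as a GCRMA log2 value. The 183 control probe sets were left out, and the 12991 of 18769 others with a mean of at least 4 were tested. Names came from the platform annotation (13647 probe sets with 1 symbol, 402 with several, 4720 with none), and all 47 Obp gene IDs matched the reference table.

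ZT15 was tested against ZT3 over 6 arrays. The cosine (24-hour period) used all 10. Both were run in limma 3.58.1 (lmFit and eBayes, R 4.3.3) with the array set as a block, Benjamini-Hochberg adjustment over all tested probe sets and a threshold of 0.05. Sets came from complete-linkage clustering of 1 minus the correlation. Each fit was tested on simulated data. The number of arrays limits the precision: the median residual SD of the block fit was 0.159 over the tested Obp genes. Alternatives covered the block, scale, normalization, filter, pseudocount, variance prior, probe set choice and left-out arrays. Replicate numbers were not used to pair samples.

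Members, role lists, array sets and tests were chosen with earlier results of these data known. Values per array were given for the 8 highest members, the 5 largest differences between sets and between times in each direction, the 5 largest amplitudes and any gene past the threshold. Obp18a, Obp19b, Obp56h and the other genes named beyond these were chosen after their values were seen.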

Additional observations from a re-analysis of the deposited data

Results flagged for a closer look

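Within an array set, 4 Obp values stood apart by a gap that is large against the spread of the other arrays, out of 62 groups looked at, where chance gives about 1 in 20. The number flagged is close to that share, so it is no result about the family. Obp51a was at 4.32 on ZT15 replicate 3, the highest of the 4-array set, with the next at 3.61. Obp56h was at 10.55 at ZT23, the highest of the 6-array set, with the next at 10.18. Obp57a was at 10.38 at ZT11 beside a next value of 9.95. The antennal gene Obp84a was at 3.92 at ZT11 and at no more than 2.60 on the other arrays of the 6-array set, and ZT11 was also the array with the highest olfactory marker mean in that set, 4.83.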

How the results depend on the processing

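No Obp gene passed for ZT15 against ZT3 in any of 19 other settings or for the 24-hour cosine in any of 21. For ZT15 against ZT3 these settings are not all separate tests. The fit over all 10 arrays gave the main values again. The 4-array set alone gave the same values as leaving out ZT3 replicate 3 or ZT15 replicate 1. The interaction test asks about a different term. That test, the cosine in the 6-array set alone, the single-set medians and the left-out arrays for the set differences were added after seeing the data. Over all settings but the log2(value + 1) scale, the lowest adjusted p (limma) was 0.0771 for Obp56f and 0.185 for Obp99a in ZT15 minus ZT3. The median difference of 0.123 was 0.178 on the log2(value + 1) scale, 0.055 and 0.248 in the 4-array and 6-array sets alone, and 0.055 to 0.193 with 1 array left out, namely 0.055 without ZT3 replicate 3 or ZT15 replicate 1. Same-numbered arrays had correlated deviations of -0.893, 0.804 and -0.903, but the second pair lies in 1 array set and the others across sets, so whether the numbers pair the samples cannot be judged. Under a replicate block the count stayed at 0 and the median at 0.123. Counts of genes higher and lower by over 2 in the 4-array set were 7 to 8 and 5 under the scalings and without 1 array. Under the scalings, 14 of the named set differences moved by more than the spread within a set and 58 did not. Levels near the bottom of the scale limit the size of differences: with a pseudocount of 16, that of Obp56i went from -4.39 to -3.93.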
